A study of Mus musculus with 6 samples.

Results

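The genes described here are Arg1, Arg2, Nos2, Fn1 and Thbs1: both arginases, the inducible nitric oxide synthase and the matrix proteins fibronectin and thrombospondin-1. They were picked by gene symbol with their levels across the groups and across the array numbers already known, so their own values are a description. No p-value is given for them, and where the errors or counts of a fit over all genes are printed for them, nothing is read from those. They are 5 of 18193 genes measured and have 8 of the 34945 probe sets with 1 gene symbol. A probe set annotated to Thbs1 together with another gene was left out.

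RNA came from cells grown out of C57BL/6 mouse bone marrow and was measured on 6 Affymetrix arrays in 3 groups of 2. GM-MPP are multipotent progenitors grown with stem cell cytokines plus GM-CSF, a growth factor of myeloid cells. GM-DC are dendritic cells, which take up antigen and present it to T cells, made from the GM-MPP cells in GM-CSF. For GM-TNFa-DC the medium held the inflammatory cytokine TNFa beside GM-CSF. GM-CSF is thus common to all the groups, and no dose or culture time is given in the sources used here. The arrays of each group are numbered 1 and 2, and the labels do not say whether a number stands for a culture, an animal or a day, so p-values rest only on how far these samples differ, and that variation may be technical.

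Arginases and nitric oxide synthase use the same amino acid. Arg1, the cytosolic arginase, and Arg2, the mitochondrial one, split arginine into ornithine and urea, and ornithine feeds polyamine and proline synthesis. Nos2 turns arginine into nitric oxide and citrulline, and it needs tetrahydrobiopterin as a cofactor. Arg1 and Nos2 are widely used to tell apart activation states of macrophages. Fibronectin is a large adhesive glycoprotein of the extracellular matrix that cells bind through integrins. Thrombospondin-1 binds CD36 and CD47 on cells and can release TGF-beta from its latent form.

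Levels are log2 values, so 1 unit is a 2-fold difference. Array medians lay between 4.67 and 4.77 and lower quartiles between 3.36 and 3.47, and a level near or under these is close to background. The arrays of the dendritic cell groups split by number. Over all probe sets the correlation across the groups was 0.9876 for the number-1 pair and 0.9902 for the number-2 pair, higher than the 0.9696 within GM-DC and the 0.9607 within GM-TNFa-DC. The differences of the 5 genes between groups are therefore also given within each number. Of 13 dendritic cell markers 9 were called higher in GM-DC and 10 in GM-TNFa-DC than in GM-MPP. Among them Itgax, which encodes CD11c, lay between 10.75 and 11.59, against 4.47 and 4.49 in GM-MPP.

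Arg1 was near background on 4 arrays and among the brightest signals on 2. Its level was 3.19 in GM-MPP 1, 2.94 in GM-MPP 2, 3.11 in GM-DC 1 and 2.93 in GM-TNFa-DC 1. In GM-DC 2 it was 12.78 and in GM-TNFa-DC 2 it was 12.60. Both progenitor arrays and both number-1 dendritic cell arrays thus lay under the lower quartile of their array, while the number-2 dendritic cell arrays lay at the 99.7th and 99.5th percentile of all probe sets. The number-2 array exceeded the number-1 array by 9.66 log2 units in GM-DC and 9.67 in GM-TNFa-DC, which is 812-fold and 815-fold. Because the low side is close to background and the high side near the top of the range, these folds are not exact. In both groups this was the highest difference between the numbers of all 18193 genes.

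Arg2 showed no such split. Its brighter probe set, 1418847_at, read 8.35 and 8.56 in GM-MPP 1 and 2, 8.25 and 8.07 in GM-DC 1 and 2, and 8.21 and 8.98 in GM-TNFa-DC 1 and 2. All 6 values lay within 0.92 log2 units of each other, well above the array medians. The second probe set, 1438841_s_at, was 0.42 to 0.94 units dimmer and ranged from 7.31 in GM-DC 1 to 8.19 in GM-TNFa-DC 2. On both probe sets GM-TNFa-DC 2 was the highest array.

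Nos2 was dim on most arrays and highest in GM-TNFa-DC 2. Its level was 4.31 and 4.94 in GM-MPP 1 and 2, 4.59 and 6.34 in GM-DC 1 and 2, and 5.03 and 7.36 in GM-TNFa-DC 1 and 2. The number-2 array was higher in every group, by 0.64 in GM-MPP, 1.75 in GM-DC and 2.33 in GM-TNFa-DC, the last being 5.04-fold. On the number-1 dendritic cell arrays Nos2 stayed close to the array median, so Arg1 and Nos2 were both higher on the same pair of arrays.

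Fn1 was high in the progenitors and on the number-2 dendritic cell arrays, and low on the number-1 dendritic cell arrays. Its brighter probe set, 1426642_at, read 11.09 and 11.74 in GM-MPP 1 and 2, 6.55 in GM-DC 1, 12.26 in GM-DC 2, 5.84 in GM-TNFa-DC 1 and 12.37 in GM-TNFa-DC 2. The difference between the numbers was 5.71 in GM-DC and 6.53 in GM-TNFa-DC, or 52.2-fold and 92.3-fold, against 0.66 in GM-MPP. The dimmer probe set, 1437218_at, split the dendritic cell arrays in the same way, with 2.93 and 3.16 on the number-1 and 7.99 and 8.04 on the number-2 dendritic cell arrays, and 7.88 and 8.45 in GM-MPP. On that probe set the number-1 levels lay under the lower quartile, so its folds of 33.4 and 29.5 are compressed.

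Thbs1 followed Fn1. Its brighter probe set, 1460302_at, read 11.33 and 12.0 in GM-MPP 1 and 2, 6.62 in GM-DC 1, 12.79 in GM-DC 2, 5.78 in GM-TNFa-DC 1 and 13.05 in GM-TNFa-DC 2. The numbers differed by 6.17 in GM-DC and 7.27 in GM-TNFa-DC, or 71.8-fold and 154-fold, and by 0.67 in GM-MPP. The other probe set, 1450377_at, was dimmer by 0.83 to 1.09 on every array and gave 6.35 and 7.31 for the same differences. For Thbs1, and for the brighter probe set of Fn1, both GM-MPP arrays lay between the number-1 and the number-2 array of each dendritic cell group.

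**Figure D1:**
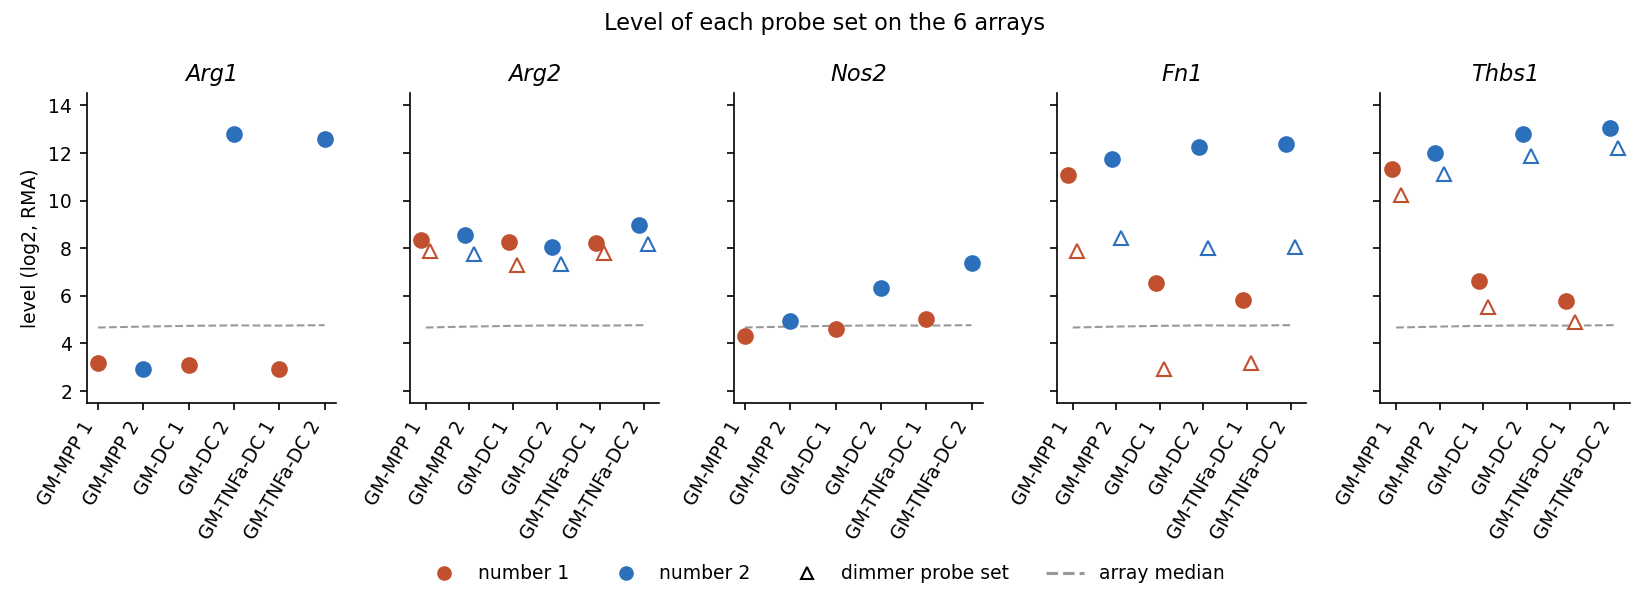
Level (log2, RMA) of each probe set of Arg1, Arg2, Nos2, Fn1 and Thbs1 on the 6 arrays, with number-1 arrays in orange, number-2 arrays in blue, open triangles for a gene's dimmer probe set and a dashed line for the array median. Arg1 stands at 12.78 and 12.60 only on the number-2 dendritic cell arrays, Fn1 and Thbs1 are low only on the number-1 dendritic cell arrays, and Arg2 is nearly level.

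With 2 arrays a group, the spread of GM-DC and GM-TNFa-DC exceeded most differences between groups. Arg1 had a mean of 3.07 ± 0.18 (SD, n = 2) in GM-MPP, 7.94 ± 6.83 in GM-DC and 7.77 ± 6.84 in GM-TNFa-DC. The lowest mean was in GM-MPP and the highest in GM-DC, and no neighbours differed beyond their spread. Fn1 had 9.10 ± 4.62 in GM-TNFa-DC, 9.40 ± 4.04 in GM-DC and 11.42 ± 0.46 in GM-MPP, and Thbs1 had 9.42 ± 5.14, 9.71 ± 4.36 and 11.67 ± 0.48. For both the mean was lowest in GM-TNFa-DC and highest in GM-MPP, again with no neighbours apart by more than their spread. Nos2 had means of 4.62 ± 0.45 in GM-MPP, 5.47 ± 1.24 in GM-DC and 6.19 ± 1.65 in GM-TNFa-DC, and the arrays of neighbouring groups overlapped. Arg2 was 8.16 ± 0.13 in GM-DC, 8.45 ± 0.15 in GM-MPP and 8.60 ± 0.55 in GM-TNFa-DC. Here the GM-DC arrays lay below both GM-MPP arrays, and the GM-TNFa-DC arrays spanned the GM-MPP range.

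GM-DC were set against GM-MPP to see what differs between progenitors and the dendritic cells made from them. Over all genes 4.5% were called (limma, Benjamini-Hochberg adjusted p under 0.05), 1.87% higher and 2.63% lower in GM-DC, and 0 of the 5 genes described here were. Since they were chosen with these values known, nothing is read from that count. The pooled log2 changes were 4.88 ± 4.07 (SE) for Arg1, 0.84 ± 0.90 for Nos2, -0.29 ± 0.31 for Arg2, -2.01 ± 2.59 for Fn1 and -1.96 ± 2.85 for Thbs1. A pooled mean hides opposite behaviour here, so the values within each number say more.

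On number 1, Arg1 differed by -0.08 between GM-DC and GM-MPP, and on number 2 by 9.84, or 914-fold. Fn1 was lower in GM-DC 1 than in GM-MPP 1, by 23.3-fold (log2 -4.54), and differed by 0.51 on number 2. Thbs1 was 26.1-fold lower on number 1 (log2 -4.71) and differed by 0.78 on number 2. The second Thbs1 probe set gave -4.70 and 0.79, and the second Fn1 probe set -4.96 and -0.46, a sign opposite to the first probe set on number 2. Nos2 differed by 0.29 and 1.40, and Arg2 by -0.09 and -0.49. Thus Arg1 was far higher in GM-DC on number 2, while Fn1 and Thbs1 were far lower in GM-DC on number 1. As a background with 1 array a group, a difference of 2-fold or more was found on number 1 for 7.1% of all genes upward and 8.86% downward, and on number 2 for 6.04% and 6.5%. Over all genes, 10 were at least 16-fold higher on number 2 and within 2-fold on number 1, and Arg1 was among them. Another 11 were at least 16-fold lower on number 1 and within 2-fold on number 2, and Fn1 and Thbs1 were among those. GM-TNFa-DC shares the GM-MPP arrays, and its differences from them were -0.26 and 9.66 for Arg1 on numbers 1 and 2, -5.25 and 0.62 for Fn1, -5.55 and 1.05 for Thbs1, 0.72 and 2.42 for Nos2, and -0.13 and 0.43 for Arg2. In that comparison 7.03% of all genes were called, 2.77% higher and 4.26% lower, and 0 of the 5.

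**Figure D2:**
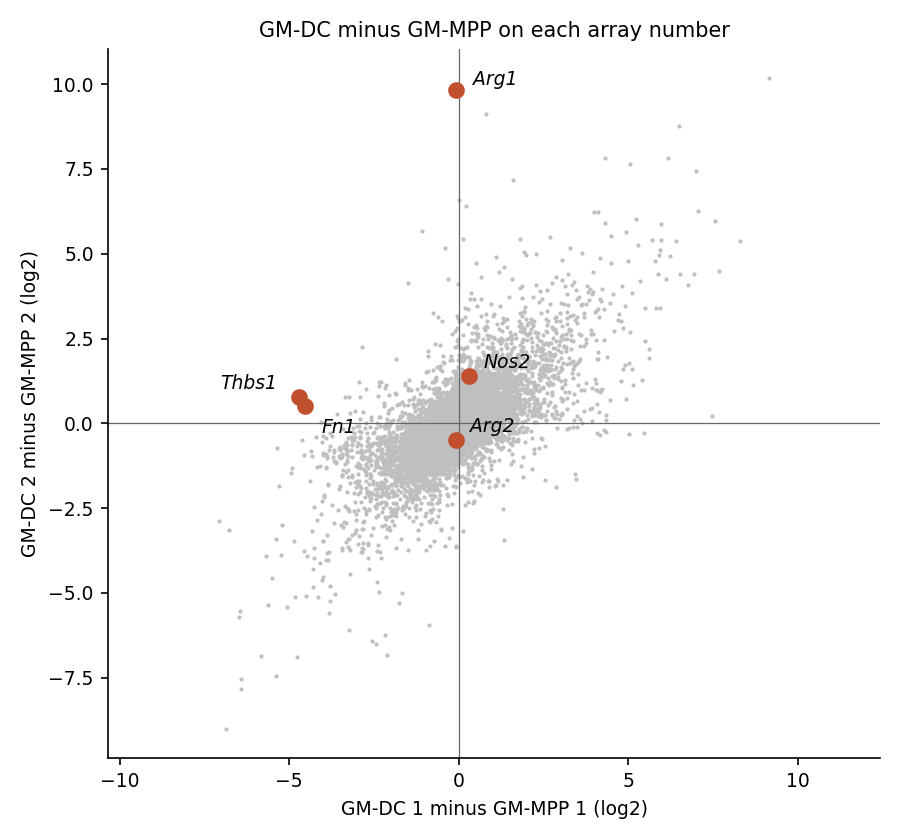
Log2 difference of GM-DC minus GM-MPP on number 1 (x axis) and number 2 (y axis), each point 1 of 18193 genes, with Arg1, Arg2, Nos2, Fn1 and Thbs1 in orange. Arg1 lies at -0.08 and 9.84, and Fn1 and Thbs1 lie near -4.54 and -4.71 on the x axis but near 0 on the y axis.

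GM-TNFa-DC were set against GM-DC to see what differs with TNFa in the medium. Of 18193 genes 0 were called (0%, limma), and 2.25% had an unadjusted p under 0.05. Arg1 differed by -0.18 on number 1 and -0.17 on number 2, so its level was nearly the same with and without TNFa on each number. Nos2 was higher with TNFa on both numbers, by 0.44 and 1.02, the second being 2.03-fold. Arg2 differed by -0.04 and 0.92 on its brighter probe set and by 0.48 and 0.86 on the other, so that on number 2 both probe sets were higher with TNFa, by 1.89-fold and 1.82-fold. Fn1 differed by -0.71 and 0.11, where its other probe set gave 0.23 and 0.06, and Thbs1 by -0.84 and 0.26. On number 1, 1.42% of all genes were at least 2-fold higher and 1.26% lower with TNFa, and 0 of the 5 were among them. On number 2 the shares were 0.203% and 0.522%, and of the 5 only Nos2 passed 2-fold. With 1 array on each side these differences have no replicate check, and the pooled changes were 0.73 ± 0.90 (SE) for Nos2 and 0.44 ± 0.31 for Arg2. The pooled fit has no term for the array number, so its errors hold the split between the numbers. With the number as a term on the 4 dendritic cell arrays the errors were 0.20 for Nos2 and 0.25 for Arg2, and again 0 of 18193 genes were called (limma), with 1474 at an unadjusted p under 0.05.

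The array number itself was compared over the 4 dendritic cell arrays, with the group as a term, which leaves 1 residual degree of freedom. Errors and p-values of this fit, here and below, measure how alike the number difference was in GM-DC and GM-TNFa-DC. They do not measure variation between cultures or animals, since the labels do not say what a number marks. Number 2 minus number 1 was 9.67 ± 0.14 (SE) for Arg1, 6.72 ± 0.28 for Thbs1, 6.12 ± 0.22 for Fn1, 2.04 ± 0.20 for Nos2 and 0.29 ± 0.25 for Arg2. Of all genes 6.41% were called higher and 5.41% lower on number 2 (limma), and 4 of the 5 were called higher, from which nothing is read because the genes were chosen with this difference known. In GM-DC the difference ranked 1 for Arg1, 9 for Thbs1, 10 for Fn1, 314 for Nos2 and 12991 for Arg2 from the highest of 18193 genes. In GM-TNFa-DC the ranks were 1, 2, 3, 169 and 1286 for Arg1, Thbs1, Fn1, Nos2 and Arg2. At least 32-fold higher on number 2 in both groups were 8 genes: Arg1, Fn1, Thbs1, Ctla2b, Ly6i, Ppbp, Saa3 and Serpinb2, the last 5 named after their values were seen. Of these 8, 3 also differed at least 2-fold between the GM-MPP arrays: Saa3 (3.39), Ppbp (1.71) and Ly6i (1.0). Ctla2b differed by 0.95 there and Serpinb2 by -0.22. In GM-MPP the numbers differed by -0.25 for Arg1, 0.66 for Fn1, 0.67 for Thbs1, 0.64 for Nos2 and 0.21 for Arg2. The ranks there were 14610, 605, 563, 641 and 4154 in the same order.

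**Figure D3:**
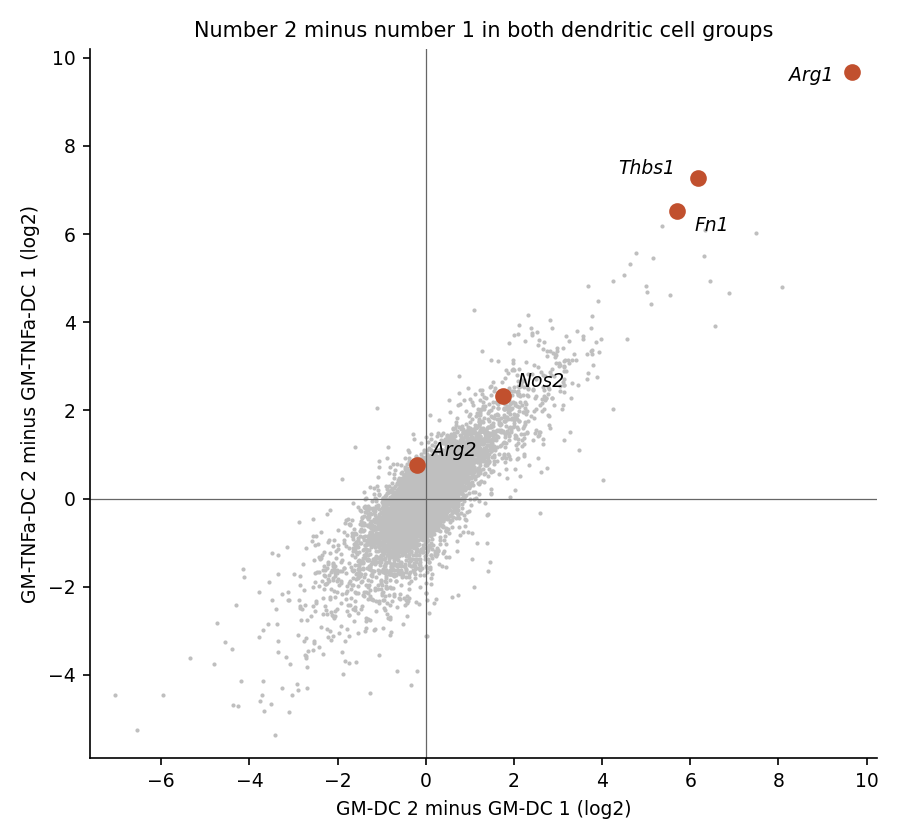
Log2 difference of number 2 minus number 1 in GM-DC (x axis) and in GM-TNFa-DC (y axis), each point 1 of 18193 genes. Arg1 lies farthest out at 9.66 and 9.67, Thbs1 and Fn1 follow, Nos2 lies at 1.75 and 2.33, and Arg2 lies at -0.19 and 0.77.

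Genes with the most similar profile over the 6 arrays were found by the Euclidean distance between centred log2 profiles, and Pearson's r is given as a description. The 4 dendritic cell arrays among the 6 points share the number split. Fn1 and Thbs1 were each other's nearest gene, at a distance of 0.62 and r = 0.999. Next to Fn1 came Ifitm3, an interferon-inducible membrane protein (distance 1.40, r = 0.998), and Ppbp, a chemokine stored in platelets (1.41, r = 0.983). The same genes came next to Thbs1, at 1.58 for Ppbp and 1.91 for Ifitm3. Ppbp read 8.80 and 10.51 in GM-MPP 1 and 2, 3.45 and 3.50 on the number-1 and 9.79 and 9.60 on the number-2 dendritic cell arrays.

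Arg1 had no close neighbour by distance, a measure that depends on the size of a change, and Arg1 spanned 9.84 log2 units. Its nearest genes were Ly6i (distance 4.41, r = 0.983), Sdc1, a cell surface proteoglycan (4.43, r = 0.963), and Cxcl3, a neutrophil-attracting chemokine (4.50, r = 0.915). Cxcl3 read 2.69 and 2.48 in GM-MPP, 3.50 in GM-DC 1, 7.23 in GM-TNFa-DC 1, and 11.58 and 12.02 on the number-2 arrays. It thus differed from Arg1, which was not higher in GM-TNFa-DC 1. Nos2 was closest to Cxcl10, an interferon-inducible chemokine (0.54, r = 0.987), Grina (0.59, r = 0.975) and Lox, the lysyl oxidase that crosslinks collagen (0.59, r = 0.977). Arg2, with a span of 0.92, was too flat for this measure.

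Genes that share substrates, receptors or pathways with the 5 were followed in 8 lists with 119 different measured genes. Between the numbers of the dendritic cell arrays, 17 were called higher and 16 lower on number 2, that is 27.7% against 11.8% of all genes (limma). The lists were chosen with earlier results of these data known, so nothing is read from the excess over all genes. Of 21 genes of arginine uptake and use, 2 were higher and 3 lower, with a list median of -0.01 against 0.03 over all genes. The arginine transporter Slc7a2 was higher on number 2 (1.15 ± 0.16 SE, adjusted p = 0.0171), while the transporter Slc7a1 (-1.83 ± 0.14, adjusted p = 0.00393) and Aldh18a1, an enzyme of proline synthesis (-2.16 ± 0.22, adjusted p = 0.00787), were lower. Odc1, which turns ornithine into polyamines, did not pass (-0.23 ± 0.13, adjusted p = 0.334). Neither did Ass1, which recycles citrulline (0.26 ± 0.22, adjusted p = 0.511).

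Of 9 genes of nitric oxide synthases and tetrahydrobiopterin supply, 0 were higher and 2 lower on number 2, Nostrin (-1.10 ± 0.15) and Qdpr (-0.62 ± 0.12). Between the GM-MPP arrays the same difference was -0.19 for Nostrin and -0.49 for Qdpr. Gch1, the first enzyme of tetrahydrobiopterin synthesis, was at 6.01 and 5.97 in GM-MPP, 7.63 and 8.17 in GM-DC, and 8.30 and 8.99 in GM-TNFa-DC. All dendritic cell arrays lay above both GM-MPP arrays. The higher GM-DC value was close to the lower GM-TNFa-DC value, and 0 genes were called between those groups (limma). Gch1 rose in GM-DC (1.91 ± 0.32, adjusted p = 0.0371) and GM-TNFa-DC (2.66 ± 0.32, adjusted p = 0.0149) against GM-MPP. The constitutive synthases Nos1 and Nos3 ranged from 5.41 to 6.01 and from 4.30 to 5.06.

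Genes of the response to interleukin-4 and of alternative activation, a state in which Arg1 is a usual marker, were followed next. Of 16 measured, 1 was higher and 6 lower on number 2, with a median of -0.34. The crosslinking enzyme Tgm2 was higher (3.05 ± 0.11, adjusted p = 0.00187), and the mannose receptor Mrc1 was lower (-3.43 ± 0.13, adjusted p = 0.00187), as were the ligand Pdcd1lg2 (-2.20 ± 0.29) and the lectin Mgl2 (-1.56 ± 0.23). Between the GM-MPP arrays, number 2 minus number 1 was 2.11 for Tgm2, -0.72 for Mrc1, -1.11 for Pdcd1lg2 and 1.18 for Mgl2. The sign there was thus the same for Tgm2, Mrc1 and Pdcd1lg2 and opposite for Mgl2. Chil3 was bright on all arrays, between 13.14 and 13.92, and Retnla, high in GM-MPP at 10.84 and 10.77, lay between 4.73 and 5.49 on all dendritic cell arrays. Of 14 genes of the interferon-gamma response and classical activation, 5 were higher and 3 lower, with a median of 0.15. The inflammatory genes Il1b (3.15 ± 0.12, adjusted p = 0.00187), Il6 (3.15 ± 0.31, adjusted p = 0.00729), Ptgs2 (3.06 ± 0.32, adjusted p = 0.00831), Cxcl10 (2.16 ± 0.19) and Tnf (0.79 ± 0.16) were higher on number 2. Il12b (-1.40 ± 0.15), Jak2 (-1.08 ± 0.16) and Irf1 (-0.77 ± 0.13) were lower. Between the GM-MPP arrays the same difference was 1.10 for Tnf, 0.17 for Il1b, 0.13 for Ptgs2, 0.12 for Cxcl10 and -0.99 for Il6. For Il12b, Jak2 and Irf1 it was -0.25, 0.34 and 0.25. The number difference of Tnf was thus not confined to the dendritic cell groups.

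Fibronectin and thrombospondin receptors were followed beside their ligands. Of 11 fibronectin-binding integrins and syndecan, 2 were higher and 1 lower on number 2: Itgav (1.18 ± 0.13), Itgb7 (0.67 ± 0.14) and Itga4 (-0.80 ± 0.13). Between the GM-MPP arrays the same difference was 0.13 for Itgav, 0.69 for Itgb7 and 0.38 for Itga4. Of 10 genes of the thrombospondin family and its receptors, 2 were higher on number 2, Cd36 (2.59 ± 0.13, adjusted p = 0.00200) and Cd47 (0.83 ± 0.13, adjusted p = 0.0203). Cd36 read 2.76 and 2.80 in GM-MPP, where Thbs1 was high, 7.79 and 7.98 on the number-1 and 10.44 and 10.50 on the number-2 dendritic cell arrays. The related genes Thbs2, Thbs3, Thbs4 and Comp lay between 3.05 and 4.08 on every array, below every array median.

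Of 24 other matrix proteins, 4 were higher and 0 lower on number 2: Ecm1 (3.02 ± 0.25), Lox (2.38 ± 0.17), Vcan (1.20 ± 0.21) and Col4a2 (0.99 ± 0.15). The list's median was 0.15. Between the GM-MPP arrays the same difference was 1.33 for Ecm1, 0.95 for Lox, 0.08 for Vcan and -0.31 for Col4a2. Among the fibrillar collagens, Col1a1 lay between 4.24 and 4.47 and Col3a1 between 2.81 and 3.92, below every array median. Col5a1 was above it on every array, between 5.03 and 6.43, with a number difference that did not pass (1.01 ± 0.23, adjusted p = 0.0555). Col1a2 lay between 4.41 and 5.59. Of 14 genes of latent TGF-beta and its signalling, 1 was higher and 1 lower on number 2, near the 11.8% called over all genes (limma). Ltbp3, which binds latent TGF-beta, was higher (2.57 ± 0.20), and the receptor Tgfbr1 was lower (-1.98 ± 0.17). Tgfb1 did not pass (0.15 ± 0.12, adjusted p = 0.503).

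**Figure D4:**
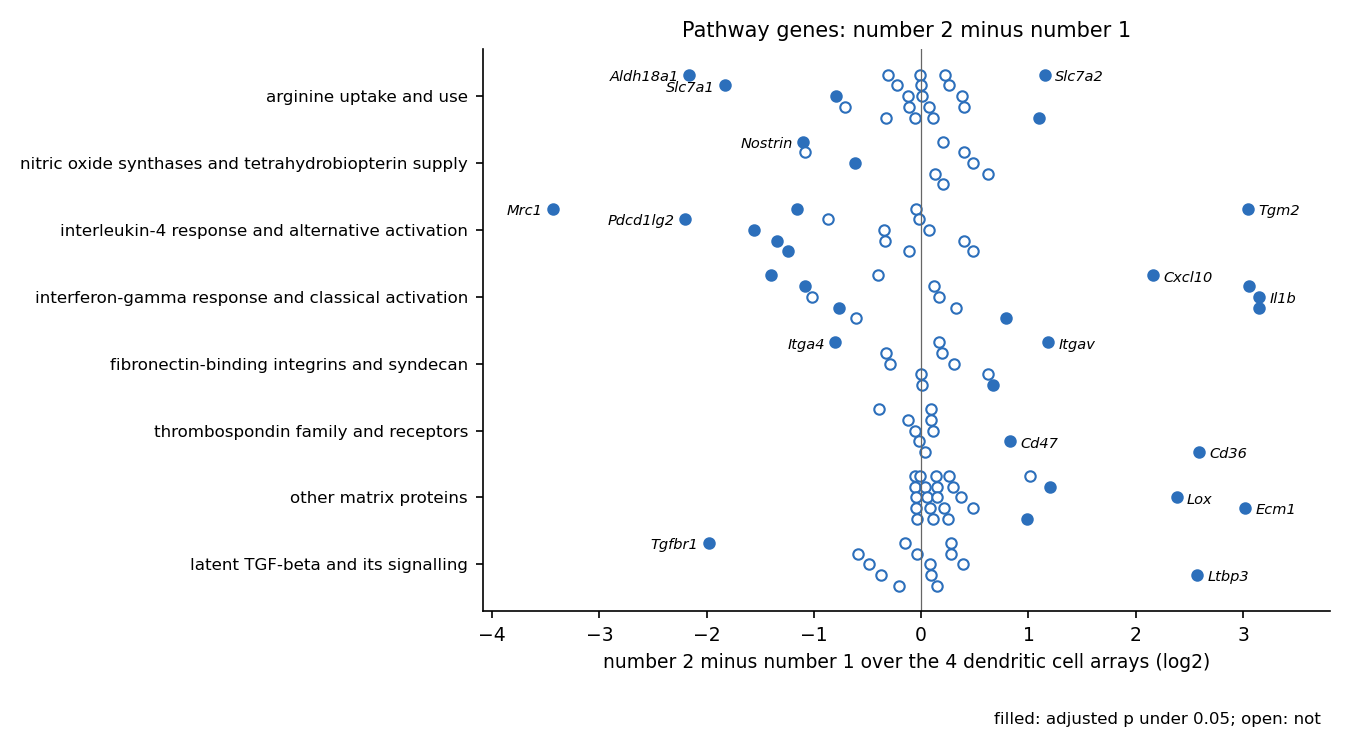
Log2 difference of number 2 minus number 1 over the 4 dendritic cell arrays for the measured genes of 8 lists, 1 point per gene, filled where the limma adjusted p is under 0.05. Il1b, Tgm2, Ecm1, Cd36, Ltbp3 and Lox lie to the right and Mrc1, Pdcd1lg2, Aldh18a1 and Tgfbr1 to the left.

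Against GM-MPP, 10 of the 119 genes rose and 3 fell in GM-DC, or 10.9% against 4.5% of all genes, and 15 rose and 5 fell in GM-TNFa-DC, or 16.8% against 7.03%. Here too nothing is read from the excess, because the lists were chosen with earlier results known. Slc7a2 rose by 5.29 ± 0.53 (SE) in GM-DC (adjusted p = 0.0120) and by 5.66 ± 0.53 in GM-TNFa-DC (adjusted p = 0.00847), and it was above both GM-MPP arrays on all 4 dendritic cell arrays. Srm, the spermidine synthase, fell by 2.26 ± 0.39 and 2.67 ± 0.39, and Retnla fell by 5.49 ± 0.29 and 5.70 ± 0.29. Cd36 rose by 6.34 ± 1.10 and 6.46 ± 1.10, and Lrp1, an uptake receptor that binds thrombospondin-1, by 2.54 ± 0.28 and 2.63 ± 0.28. Itgb1 and Itga5, which together form the classical fibronectin receptor, rose in GM-TNFa-DC by 1.56 ± 0.25 and 1.40 ± 0.20. Within numbers 1 and 2, Slc7a2 differed between GM-DC and GM-MPP by 4.94 and 5.64, Srm by -2.02 and -2.49, Retnla by -5.62 and -5.36, Cd36 by 5.04 and 7.64, and Lrp1 by 3.0 and 2.09. In GM-TNFa-DC Itgb1 differed by 1.98 and 1.14 and Itga5 by 1.46 and 1.34. Each of these thus had the same sign on both numbers. These counts rest on single arrays: of the 13 genes called in GM-DC, Retnla alone was called again when either GM-MPP array was left out, and 3 were when either GM-DC array was left out. Of the 20 called in GM-TNFa-DC, 2 were called again with GM-MPP 1 left out and 1 with GM-MPP 2 left out. Leaving out GM-TNFa-DC 1 kept 5 of the 20, and leaving out GM-TNFa-DC 2 kept 9. With TNFa against without, 0 of the 119 were called (limma), and 6 had an unadjusted p under 0.05.

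Some markers of other cell types moved with the array number beside Arg1, Fn1 and Thbs1, and their part in these levels was not tested. As the background for the marker counts, 11.8% of all genes were called between the numbers (limma), 6.41% higher and 5.41% lower. Of 15 macrophage and monocyte markers, 5 were higher on number 2 and 2 lower. Cd14, the endotoxin co-receptor of monocytes and macrophages, read 7.48 and 8.50 on the number-1 and 12.50 and 13.18 on the number-2 dendritic cell arrays, a difference of 4.85 ± 0.14 (SE, adjusted p = 0.00187). Fcgr1 (2.26 ± 0.25), Msr1 (1.81 ± 0.12), C1qa (1.39 ± 0.22) and C1qc (1.23 ± 0.23) were also higher, and Mertk (-0.95 ± 0.13) and Marco (-0.72 ± 0.14) lower. Within GM-MPP, number 2 minus number 1 was 1.01 for Cd14, 0.42 for Fcgr1, 0.95 for Msr1, 2.15 for C1qa and 1.60 for C1qc. For Mertk it was 0.37 and for Marco 1.59. The number difference of C1qa and C1qc was thus not confined to the dendritic cell groups. Both genes were also lower on every dendritic cell array than in GM-MPP. Adgre1, which encodes F4/80, did not pass (0.94 ± 0.27, adjusted p = 0.0973). Vsig4 and Timd4, markers of resident macrophages, lay between 2.74 and 3.80 on all dendritic cell arrays. The log2 of the list's summed level was 14.92 and 14.68 on number 1, 15.28 and 15.41 on number 2, and 13.26 and 14.21 in GM-MPP.

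Of 13 dendritic cell markers, 11 were lower and 0 higher on number 2, with a median of -1.77. The actin-bundling gene Fscn1 (-2.61 ± 0.19), the class II transactivator Ciita (-2.41 ± 0.15), H2-Ab1 (-2.10 ± 0.13), Zbtb46 (-1.77 ± 0.16) and Ccr7 (-1.48 ± 0.25) were among them. The summed level of this list was 15.59 and 15.96 on number 1, 13.84 and 14.13 on number 2, and 9.45 and 9.71 in GM-MPP. In bulk RNA, fewer cells of a type and less RNA per cell cannot be told apart.

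Of 10 platelet and megakaryocyte markers, 2 were higher on number 2 and 1 lower. Pf4 (5.24 ± 0.61, adjusted p = 0.0107) and Ppbp (6.22 ± 0.15, adjusted p = 0.00187) were higher, whereas the lineage-defining Itga2b (-0.18 ± 0.15, adjusted p = 0.523) and Gp9 (-0.05 ± 0.15, adjusted p = 0.867) did not pass. Between the GM-MPP arrays the same difference was 1.47 for Pf4, 1.71 for Ppbp, 0.82 for Itga2b and 0.12 for Gp9. The summed level was 10.30 and 10.34 on number 1 and 13.06 on both number-2 arrays, against 10.80 and 12.09 in GM-MPP. Pf4, at 12.79 and 12.81 on the number-2 dendritic cell arrays, made up most of the sum there. The list's median hardly differed, at 5.99 and 5.87 on number 1 and 5.96 and 5.99 on number 2. Of 14 fibroblast and endothelial markers, of which the collagens Col1a1, Col1a2 and Col3a1 are also in the matrix list, 3 were higher, Pecam1 (1.74 ± 0.27), Kdr (1.27 ± 0.14) and Dcn (1.16 ± 0.15), and 7 to 10 of the 14 lay below the array median on each array. Their summed level was 9.06 and 8.86 on number 1, 9.56 and 9.54 on number 2, and 9.05 and 9.31 in GM-MPP.

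Of 10 neutrophil markers, 2 were higher on number 2, Mmp8 (3.03 ± 0.42) and Prtn3 (0.84 ± 0.14), and 5 were lower, among them S100a9 (-2.88 ± 0.29). Of 9 progenitor markers, 1 was higher and 2 lower, with Kit at -3.29 ± 0.14. Kit read 9.0 and 8.66 on the number-1 and 5.65 and 5.43 on the number-2 dendritic cell arrays, against 7.09 and 7.22 in GM-MPP. Sox4 read 9.25 and 9.57 on number 1, against 7.51 and 8.35 in GM-MPP. Both were thus above their GM-MPP levels on number 1, where they were the brightest of the list. Of 9 mast cell and basophil markers, Cpa3 was lower (-1.08 ± 0.17) and 0 were higher, which is near the share called over all genes. The summed levels of these lists on numbers 1 and 2 of GM-DC were 14.00 and 13.81 for neutrophils, 10.49 and 9.42 for progenitors, and 8.98 and 8.26 for mast cells and basophils. In GM-TNFa-DC they were 12.38 and 13.57 for neutrophils, 10.50 and 9.51 for progenitors, and 8.50 and 8.53 for mast cells and basophils. The GM-MPP sums were higher, at 16.44 and 16.65, 12.07 and 12.46, and 10.96 and 10.98 in the same order. The neutrophil sum was thus lower on number 2 in GM-DC and higher in GM-TNFa-DC. In GM-TNFa-DC, Mmp8 read 9.15 on number 1 and 13.08 on number 2, where it was the brightest of the list. The list's median was lower on number 2 in both groups. It was 8.54 and 6.18 on numbers 1 and 2 of GM-DC, and 6.72 and 6.02 on those of GM-TNFa-DC.

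**Figure D5:**
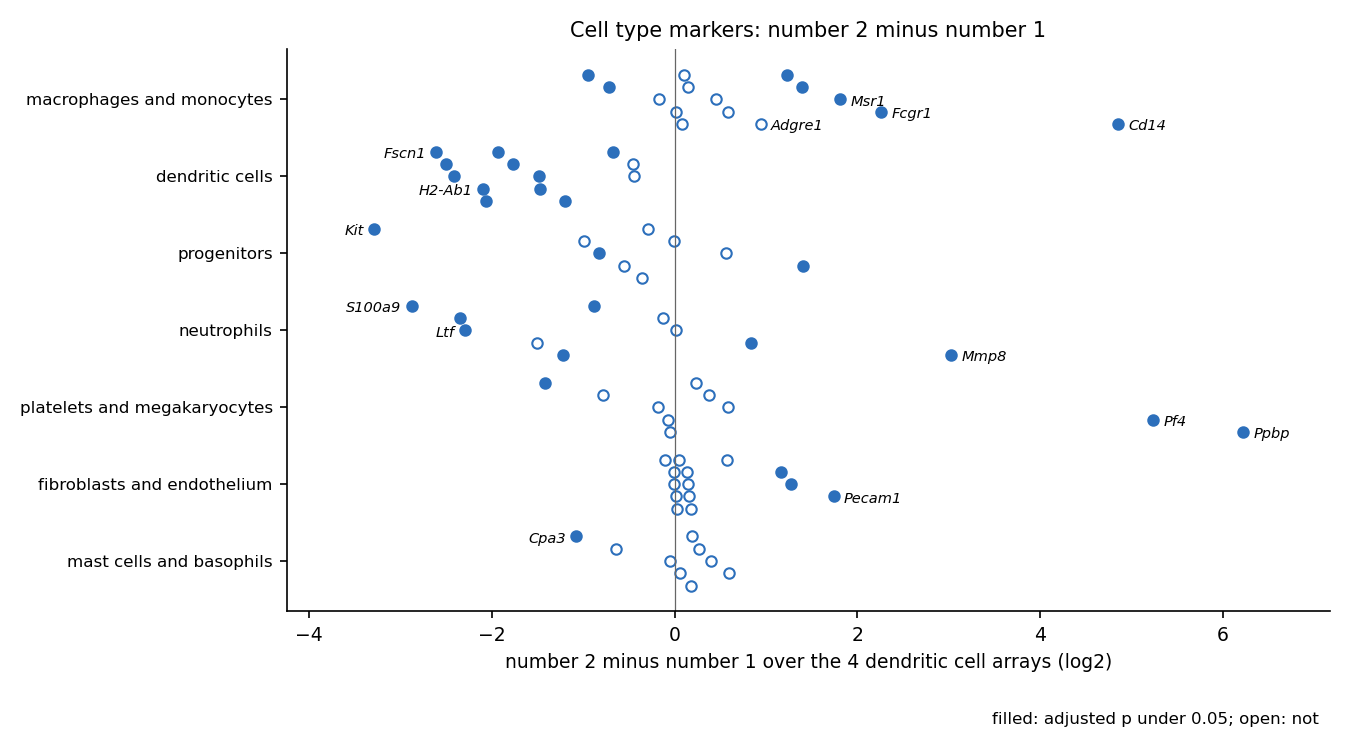
Log2 difference of number 2 minus number 1 over the 4 dendritic cell arrays for the measured genes of 7 marker lists, 1 point per gene, filled where the limma adjusted p is under 0.05. Ppbp, Pf4 and Cd14 lie farthest to the right, 11 of 13 dendritic cell markers are filled and to the left, and Kit lies at -3.29.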

How the data were processed

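Per the submitters' processing notes the deposited log2 values were made by the authors with RMA (background correction, quantile normalization and summary per probe set), and per the labels in Bioconductor. Per the labels 1 microgram of RNA was labelled. The RMA version and the set of arrays it was run on are not stated in those sources, and the log2 scale was inferred from the range of 1.89 to 14.43. Quantile normalization removes overall brightness differences, and no detection call was used. The number of arrays limits the precision.

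Probe sets were named through the platform annotation, with symbols updated by Entrez identifier to a RefSeq table of GRCm38.p6 (34741 of 34945 single-symbol probe sets matched). A gene was represented by its brightest single-symbol probe set over the 6 arrays. Differences were fitted with limma 3.58.1 in R 4.3.3 (lmFit, eBayes with trend, 3 groups, 3 residual degrees of freedom) and adjusted over 18193 genes at 0.05. The fits were also run on simulated data with independent noise on each array. Such data lack the split by number, so they do not test the calls under it. Python 3.11.15 made the tables. The genes and lists were chosen with earlier results of these data known (199 of 217 list entries were measured). Named list genes were the up to 3 called genes with the largest absolute change per list and comparison, plus the 3 nearest profiles of each of the 5 genes that spanned over 1 log2 unit. Others, namely Odc1, Ass1, Nos1, Nos3, Chil3, Cxcl10, Tnf, Il12b, Jak2, Irf1, Mgl2, Cd47, the thrombospondins, collagens, Tgfb1 and the markers, were picked for their role or to complete a count. The alternatives tried were another round of quantile normalization, centring on the median, no dim genes, mean of probe sets, other priors, fewer arrays, the number as a block and each array left out. Values within a number and the block on 4 arrays were added after seeing the data. Same-numbered deviations correlated at 0.8055 between GM-DC and GM-TNFa-DC, but at 0.1046 and 0.0719 with GM-MPP, and the labels do not say what a number marks, so the fits have no number term unless stated.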

Additional observations from a re-analysis of the deposited data

How the results depend on the processing

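With the array number as a replicate block, genes called of all 18193 went from 340 higher and 479 lower to 627 and 849 in GM-DC against GM-MPP, from 504 and 775 to 850 and 1210 in GM-TNFa-DC against GM-MPP, and stayed at 0 with TNFa against without (limma; 592 at an unadjusted p under 0.05). The pathway genes called against GM-MPP went from 10 higher and 3 lower to 17 and 5 in GM-DC, and from 15 and 5 to 23 and 10 in GM-TNFa-DC. The block on only the 4 arrays compared gave 5 and 1, and 5 and 2, and over all genes 151 and 125, and 144 and 116. Leaving out each array in turn gave 0 to 10 higher and 1 to 2 lower in GM-DC, and 0 to 10 higher and 1 to 4 lower in GM-TNFa-DC. A lone array was then assumed to vary like the other groups, so nothing is read from the counts with an array left out. The Arg2 change with TNFa was close to none within number 1 (-0.04) and 0.92 within number 2 on the brighter probe set. The other probe set gave 0.48 and 0.86. On the brighter probe set the change ranged from 0.05 to 0.82 with an array left out, and that of GM-TNFa-DC against GM-MPP from -0.24 to 0.53. For the genes that split by number the ranges were far wider. In GM-DC against GM-MPP they were 0.04 to 9.71 for Arg1, -4.87 to 0.84 for Fn1, -5.04 to 1.12 for Thbs1 and -0.03 to 1.72 for Nos2. In GM-TNFa-DC against GM-MPP they were -0.13 to 9.54, -5.58 to 0.95, -5.89 to 1.38 and 0.40 to 2.74. With TNFa against without they were -5.01 to 4.66, -3.56 to 2.97, -3.92 to 3.34 and -0.44 to 1.9. Between the numbers, Arg1 was 9.68 after another quantile normalization and 9.65 after median centring, and Fn1 was 5.55 as the mean of its probe sets. Over all 6 arrays 0 pathway genes were called higher and 0 lower (limma), and Arg1 was 6.36, Nos2 1.57, Fn1 4.30 and Thbs1 4.70. That fit averages in the GM-MPP arrays. Without the group term 8 pathway genes were lower. Within GM-DC, Arg2 was -0.19 and Nos2 1.75. Within GM-TNFa-DC, Arg1 was 9.67, Arg2 0.77, Nos2 2.33, Fn1 6.53 and Thbs1 7.27. Leaving out an array there leaves no residual degree of freedom. Other causes were not tested. Of 305 changes of the 5 genes under alternatives, 26 had the opposite sign to the main value, 15 of them with an array left out. Dim levels, such as Arg1 on 4 arrays, are close to background, which compresses folds.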
